A study of Mus musculus with 54 samples.

Results

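The acyl-CoA thioesterase genes described here are 7 genes expressed in the mouse liver, Acot1, Acot2, Acot3, Acot4, Acot8, Acot12 and Acot13. They were chosen by name, as the rows of the deposited table that carry these 7 symbols, and all 7 were found among its 20162 rows. All 7 also passed the filter on low values that left 11431 rows for the test. They were grouped by the compartment of their proteins, as generally described: Acot1 and Acot12 in the cytosol, Acot2 and Acot13 in the mitochondrion, and Acot3, Acot4 and Acot8 in the peroxisome.

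The samples were livers (medial lobe) of 54 male C57BL/6J mice that all ate a high-fat diet and were housed singly. The mice were 8 weeks old at the start of the experiment, and each ate gelatin pellets daily for 20 weeks. The pellets held di-isononyl phthalate (DINP, a plasticizer) at 1.5 mg/kg bw/d (n = 13), 15 mg/kg bw/d (n = 13) or 150 mg/kg bw/d (n = 14), or no DINP in the control group (n = 14). Polyadenylated RNA was sequenced at its 3′ ends (QuantSeq), with 1 library a mouse. No group ate a low-fat diet and no females were sampled here.

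Acyl-CoA thioesterases split fatty acyl-CoA into the free fatty acid and coenzyme A (CoA), the reverse of the step by which acyl-CoA synthetases activate a fatty acid. They belong to a pair of unrelated protein families, of which the type I enzymes stand side by side in a gene cluster and the type II enzymes share a fold called the hotdog domain. In the liver they are known for freeing CoA when fatty acid oxidation is high, and several of the type I genes are textbook targets of the nuclear receptor PPARα, to which phthalate metabolites can bind.

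The 4 type I members lie close together on the plus strand of mouse chromosome 12 (GRCm38, GENCODE M21): Acot2 at chr12:83987861-83993873, Acot1 at chr12:84009490-84018371, Acot4 at chr12:84038379-84048601 and Acot3 at chr12:84052144-84060402. With Acot5 and Acot6 they span a region of 123489 bases, in which 4 other genes are annotated. The type II members are scattered, with Acot8 at chr2:164792765-164804882 (minus strand), Acot13 at chr13:24817948-24831540 (minus strand) and Acot12 at chr13:91741512-91786148 (plus strand). Acot1, Acot2 and Acot13 overlap no other annotated gene, while Acot8 overlaps Snx21 and Acot12 overlaps 4833422C13Rik, both on the opposite strand. Acot12 also overlaps Gm27656 on its own strand and Gm24597 on the other. Acot3 and Acot4 both overlap the read-through gene Gm49366 on their own strand and the antisense gene 4732463B04Rik. That antisense gene did not exceed 1.04 in the control mice or 5.18 at the highest dose. The libraries are stranded by their kit, but how strand was used in counting is not given in the sources used here, so reads of the antisense gene and of Acot3 or Acot4 may not have been told apart.

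The windows before the start sites of 4 members are shown because they hold, or do not hold, the element that PPARα is known to bind. This element is a direct repeat of the hexamer AGGTCA with 1 base between the copies (DR1, AGGTCANAGGTCA). It was searched on both strands with up to 2 mismatches in windows of 300 bases, from 250 bases before to 50 after the start site, in the RefSeq promoter table (GRCm38.p6), which held 6 of the 7 members. Each sequence is 5′ to 3′ on the strand of the gene and ends at the base before the annotated start of the gene. Capitals mark a DR1 match, and the rest is in lower case.

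Acot1 (chr12:84009252-84009489, plus strand): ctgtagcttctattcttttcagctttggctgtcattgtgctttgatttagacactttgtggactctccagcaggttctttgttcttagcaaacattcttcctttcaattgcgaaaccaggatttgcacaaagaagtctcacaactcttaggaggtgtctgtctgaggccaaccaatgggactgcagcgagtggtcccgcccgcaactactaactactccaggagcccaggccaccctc
Acot2 (chr12:83987611-83987860, plus strand): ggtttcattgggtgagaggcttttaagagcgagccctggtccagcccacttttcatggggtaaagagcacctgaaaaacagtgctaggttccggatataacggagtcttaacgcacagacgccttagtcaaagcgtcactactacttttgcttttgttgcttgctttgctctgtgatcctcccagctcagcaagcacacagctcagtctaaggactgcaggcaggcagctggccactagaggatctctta
Acot4 (chr12:84038129-84038378, plus strand): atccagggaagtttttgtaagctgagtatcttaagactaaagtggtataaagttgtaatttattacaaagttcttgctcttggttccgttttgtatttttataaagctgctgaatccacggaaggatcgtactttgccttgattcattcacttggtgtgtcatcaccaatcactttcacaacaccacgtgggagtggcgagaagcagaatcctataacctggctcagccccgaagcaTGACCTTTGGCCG
Acot12 (chr13:91741271-91741511, plus strand): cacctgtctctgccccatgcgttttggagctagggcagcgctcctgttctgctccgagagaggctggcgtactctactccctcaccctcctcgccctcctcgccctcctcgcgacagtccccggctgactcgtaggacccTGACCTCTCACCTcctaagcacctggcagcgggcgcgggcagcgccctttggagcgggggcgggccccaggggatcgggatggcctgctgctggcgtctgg

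Acot4 held 1 match with 2 mismatches, at chr12:84038366-84038378, which ends at the base before the start of the gene. Acot12 held 1 match with 1 mismatch, at chr13:91741411-91741423. Both matches lie on the strand opposite to the gene. The windows of Acot1, Acot2, Acot3 and Acot8 held none. Of all 32851 promoter windows of this length, 3.86% held a match. The single hexamer without mismatch, which overlaps the repeat, stood in the windows of Acot3, Acot4 and Acot12, and in 16.3% of all windows. A match describes these letters, and a window without one covers only these bases. The 4 type I windows were 45.8 to 58.0% identical in pairwise alignment, and 42.3 to 53.4% identical to the windows of Acot8 and Acot12.

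The type I genes resemble each other along the transcript but not at the 3′ end, where the reads of these libraries begin. Over whole transcripts, Acot1 and Acot2 were 80.2% identical, and 23.9% of the words of 50 bases of Acot1 also stood in Acot2. In the last 500 bases of the longest coding transcript, their identity was 51.1%. None of the 451 words of 50 bases in that last stretch stood in any transcript of the other Acot genes examined, and this held for each of the 7 members. The read-through gene Gm49366, which overlaps Acot3 and Acot4 on their strand, was not examined. The expression of Acot5 was not analysed here, and its own last stretch shares 58 of its 451 words with transcripts of Acot3. Acot6 was listed at 0 in 12 of 14 control mice and above 0 in 7 of 14 mice at 150 mg/kg bw/d, never above 1.07.

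The deposited values are a signal scaled between the libraries by the authors, and are described in the section on processing. They are per transcript length, but reads from 3′ ends do not grow with length, so an order of levels between genes is only approximate. In control mice Acot13 had the highest mean, 160.9 ± 26.8 (SD, n = 14), which was 67.3% of the 7 values summed. Its longest coding transcript is also the shortest, with 721 bases against 1152 to 6203 for the other members. This share therefore rests in part on the division by length. Acot8 followed with 21.8 ± 4.41. Acot1 (12.1 ± 4.22), Acot12 (11.8 ± 1.66), Acot2 (11.7 ± 5.37) and Acot4 (11.5 ± 3.71) lay within 1 SD of each other, and Acot3 was lowest in mean (8.85 ± 4.36). At 150 mg/kg bw/d the order of the means was Acot13, Acot1, Acot2, Acot8, Acot3, Acot4 and Acot12, so that Acot1 and Acot2 had passed Acot8.

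Of the 54 libraries, 7 stood apart, with values that summed to under 900000 against a median of 974490 over all. They were 2 control mice, 4 mice at 1.5 mg/kg bw/d and 1 mouse at 15 mg/kg bw/d, with none at 150 mg/kg bw/d. In these 7 libraries the hepatocyte markers summed to 24495 to 37732, against medians of 40641 to 44967 in the 4 groups. These libraries were picked by a low sum of all values, which by itself lowers the sum of any markers. Their stellate and fibroblast markers summed to 228 to 371 and their cholangiocyte markers to 37.6 to 254, against group medians of 145 to 169 and of 18.1 to 21.3. The hepatocyte markers Alb, Apoa1 and Ttr were high in every library, as the label liver implies. The cause of the difference was not tested. Results of the 7 members that rest on these libraries are given with and without them. The fold changes of the other gene lists and of the markers are given only with them. In tissue sampled in bulk, fewer cells of a type and less RNA per cell cannot be told apart.

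**Figure D1:**
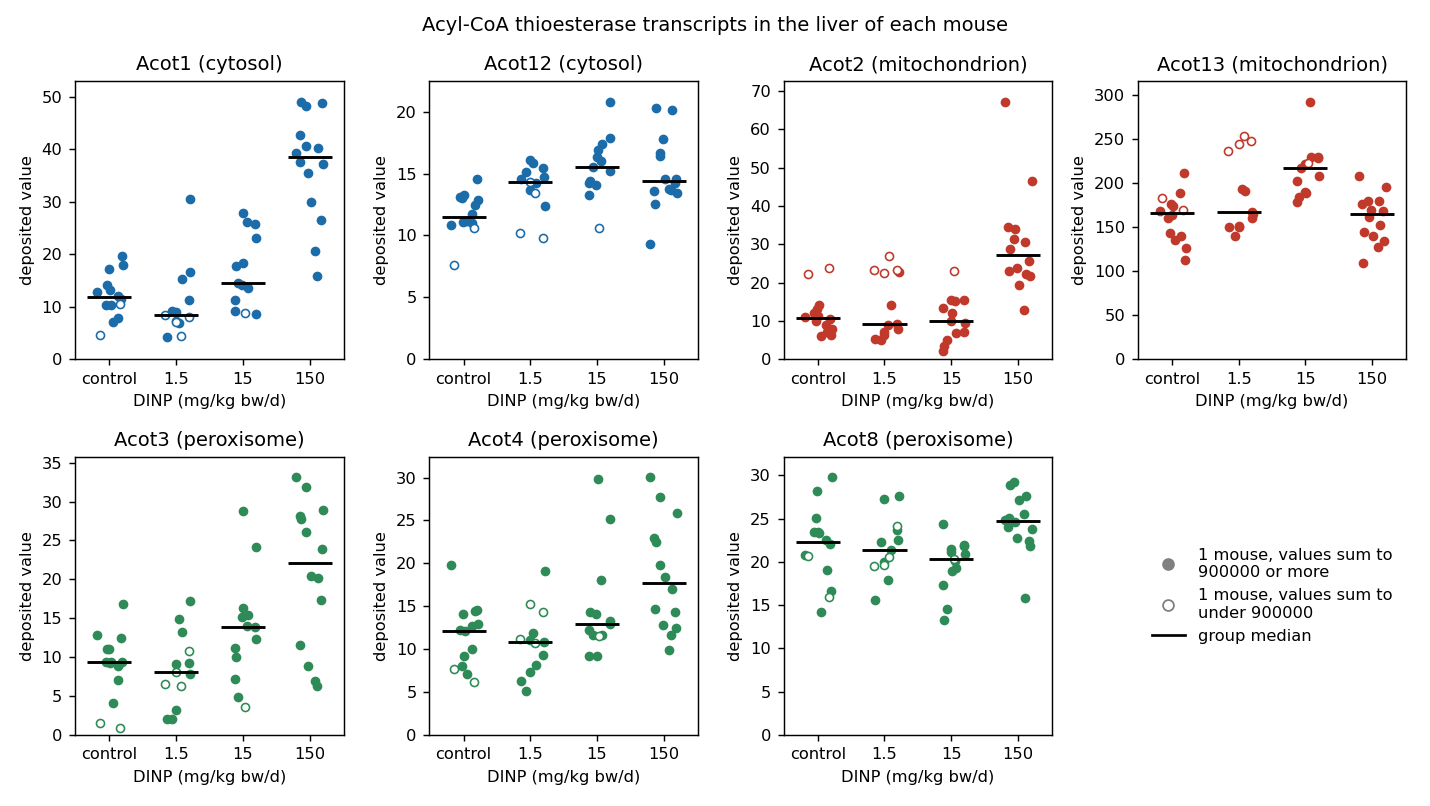
Deposited value (vertical axes, linear, each from 0) of the 7 thioesterases in every mouse by DINP dose, coloured by compartment, with the group median as a line and open circles for the 7 libraries that summed to under 900000. The Acot1 values at 150 mg/kg bw/d sit between 15.8 and 49.1, above the highest control mouse in 13 of 14 mice, while those of Acot13 at the same dose lie between 109.8 and 208.1, with 1 mouse just under the lowest control mouse (112.2).

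Exposure to 150 mg/kg bw/d raised 5 of the 7 members and lowered none in the limma fit, where a gene was called when its Benjamini-Hochberg adjusted p over all 11431 genes was below 0.05. Acot1, Acot2, Acot3, Acot4 and Acot12 rose, and Acot8 and Acot13 did not pass the test. Over all tested genes, 1.49% were higher at this dose. The median log2FC of the 7 members was 0.63 (0.38 at the middle and 0.01 at the lowest dose), and that of all tested genes was -0.01. All fold changes are on the log2(value + 1) scale, which understates the change of low genes.

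In the cytosol, Acot1 hydrolyses long-chain acyl-CoA. Its values in the control ranged from 4.59 to 19.7 with a median of 11.8, and at 150 mg/kg bw/d from 15.8 to 49.1 with a median of 38.5. All 14 exposed mice lay above the control median and 13 of them above the highest control mouse, with a single low exposed mouse (15.8). The log2FC was 1.54 ± 0.21 (SE), a 2.91-fold rise (95% interval 2.18 to 3.88; limma, adjusted p = 1.47e-06), the 7th smallest p of all genes tested. Acot12, the other cytosolic member, is an acetyl-CoA hydrolase. Its values in the control ranged from 7.64 to 14.5 (median 11.5) and at 150 mg/kg bw/d from 9.32 to 20.3 (median 14.4). The groups overlapped widely, with 13 of 14 exposed mice above the control median but 6 above the highest control mouse. Its log2FC was 0.32 ± 0.09 (limma, adjusted p = 0.0312).

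In the mitochondrion, Acot2 is the matrix enzyme for long-chain acyl-CoA. It ranged from 6.08 to 23.8 in the control (median 10.7) and from 12.8 to 67.3 at 150 mg/kg bw/d (median 27.2). All 14 exposed mice were above the control median and 8 above the highest control mouse. The highest control values, 22.2 and 23.8, came from the 2 control libraries with low sums. The log2FC was 1.29 ± 0.26 (limma, adjusted p = 0.00187), and 1.46 without the 7 libraries (adjusted p = 5.02e-05). Acot13, a small enzyme associated with mitochondria, ranged from 112.2 to 211.2 in the control (median 166) and from 109.8 to 208.1 at 150 mg/kg bw/d (median 165). The 2 ranges nearly coincided, and 7 of 14 exposed mice were above the control median. Its log2FC was -0.00 with a 95% interval of -0.19 to 0.19 (limma, adjusted p = 0.993), which spans folds from 0.874 to 1.14.

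In the peroxisome, Acot3 acts on medium and long-chain acyl-CoA. It ranged from 0.883 to 16.9 in the control (median 9.35) and from 6.32 to 33.1 at 150 mg/kg bw/d (median 22.1). The exposed mice were spread into 4 low values, up to 11.5, and 10 values above the highest control mouse. The log2FC was 1.19 ± 0.30 (limma, adjusted p = 0.0198). The lowest control values, 0.883 and 1.53, were those of the 2 libraries with low sums, and without the 7 libraries the log2FC was 0.87 (adjusted p = 0.0856). Acot4, which in mice acts on succinyl-CoA, ranged from 6.18 to 19.8 in the control (median 12.2) and from 9.84 to 30.0 at 150 mg/kg bw/d (median 17.7). In this gene 12 of 14 exposed mice were above the control median and 6 above the highest control mouse. The log2FC was 0.63 ± 0.17 (limma, adjusted p = 0.0321), and 0.53 without the 7 libraries (adjusted p = 0.110).

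Acot8, the peroxisomal enzyme with the broadest range of substrates, ranged from 14.2 to 29.8 in the control (median 22.3) and from 15.8 to 29.2 at 150 mg/kg bw/d (median 24.7). Although 12 of 14 exposed mice were above the control median, none was above the highest control mouse. The log2FC was 0.18 with a 95% interval of -0.01 to 0.36 (limma, adjusted p = 0.376). Without the 7 libraries Acot12 had a log2FC of 0.27 (adjusted p = 0.0520), so that 2 of the 7 members, Acot1 and Acot2, were called in that setting.

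Single libraries also decided some of these calls. Leaving out 1 of 10 libraries, among them control replicates 2, 5, 8, 9 and 13 and the replicates 6, 7, 8, 10 and 12 of the highest dose, took Acot4 to an adjusted p of 0.0520 to 0.0631. Leaving out control replicate 8 or the replicates 2, 4, 5 or 7 of the highest dose took Acot12 to 0.0518 to 0.0695. The calls of Acot1, Acot2 and Acot3 were kept with each of the 54 libraries left out in turn. Since reads could be split among the similar genes of the cluster, the values of Acot1, Acot2, Acot3, Acot4 and Acot6 were also summed. The sum was 44.3 ± 8.87 in the control and 106.6 ± 33.3 at 150 mg/kg bw/d (log2FC 1.21 ± 0.18, limma, adjusted p = 1.01e-05).

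**Figure D2:**
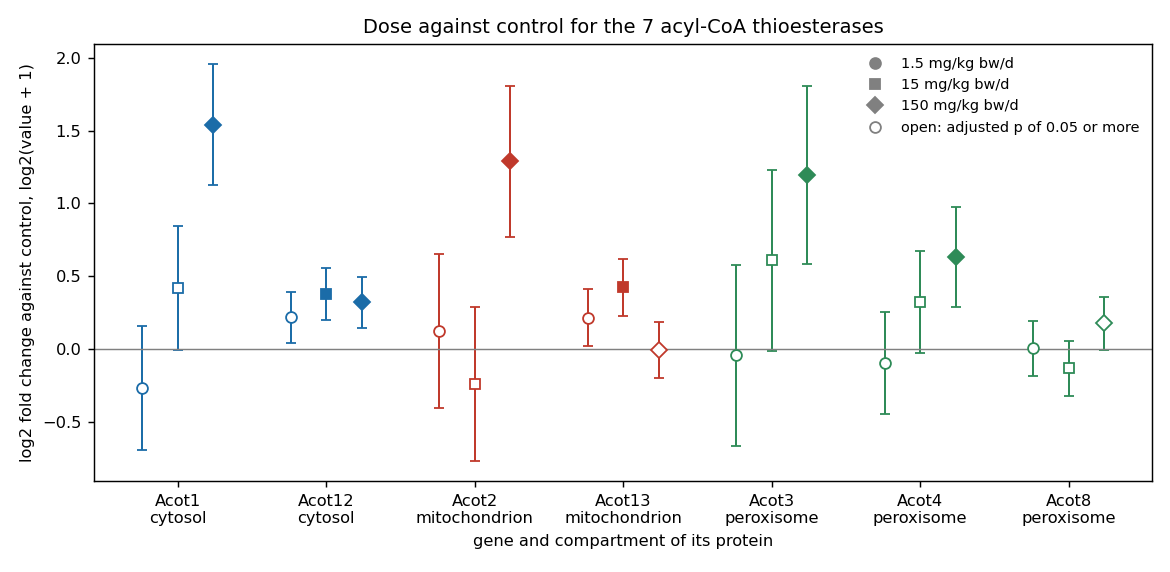
Log2 fold change against the control group (vertical axis, on the log2(value + 1) scale) of each member at each of the 3 DINP doses, with 95% intervals from limma; filled symbols have an adjusted p under 0.05. At 150 mg/kg bw/d the highest symbol is that of Acot1 at 1.54 and the lowest that of Acot13 at -0.00, and at 15 mg/kg bw/d those of Acot12 (0.38) and Acot13 (0.43) are filled.

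Each compartment held a member that moved more than its partner at 150 mg/kg bw/d. To test this, the log2 ratio of 2 members was taken within each mouse, and the control and highest dose groups (n = 14 each) were set against each other by a permutation test (2-sided, 100000 resamples) for 4 pairs. The ratio of Acot1 to Acot12 rose by 1.22 on the log2 scale (95% interval 0.88 to 1.55; permutation p = 2e-05, adjusted p = 4e-05), with 12 of 14 exposed mice above the highest control mouse. The ratio of Acot2 to Acot13 rose by 1.29 (0.97 to 1.62; permutation p = 2e-05, adjusted p = 4e-05), with 11 of 14 above it. Both p-values are the smallest that this number of resamples can give. In the peroxisome the ratio of Acot3 to Acot8 rose by 1.02 (0.44 to 1.59; permutation adjusted p = 0.000827) and that of Acot4 to Acot8 by 0.46 (0.13 to 0.79; permutation adjusted p = 0.00928). In every pair the type I member rose more than the type II member, and all 4 differences kept an adjusted p under 0.05 without the 7 libraries.

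The make-up of the 7 members shifted accordingly, in shares that depend on the division by transcript length and are only approximate. The cytosolic pair made up 10.2 ± 3.03% (SD, n = 14) of the summed value in the control and 17.1 ± 3.69% at 150 mg/kg bw/d. The mitochondrial pair went from 72.1 ± 6.48% to 62.2 ± 6.12%, while its summed value went from 172.6 ± 29.8 to 190.8 ± 39.0. The peroxisomal members went from 17.7 ± 4.14% to 20.7 ± 3.44%. These shares rest on the same values as the fold changes above and were not tested again. By gene, the mean share of Acot1 went from 5.17 to 12.0%, that of Acot2 from 4.87 to 9.51%, that of Acot3 from 3.71 to 6.56% and that of Acot13 from 67.3 to 52.7%.

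**Figure D3:**
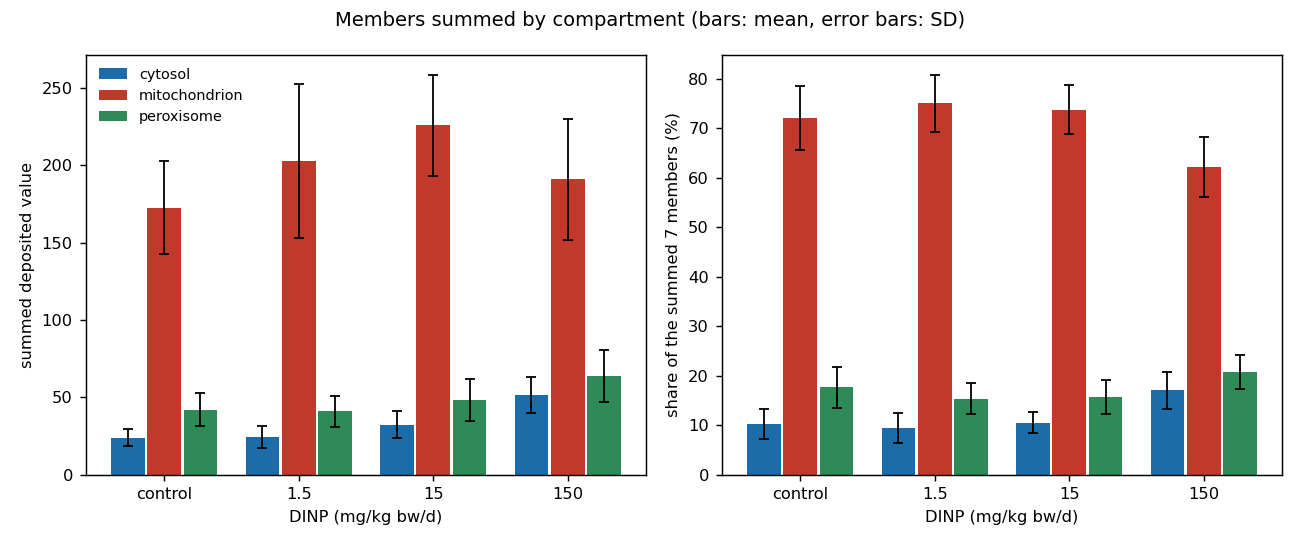
Summed deposited value (left) and share of the summed 7 members in percent (right) by compartment and DINP dose, as bars of the mean with the SD over mice, n = 14, 13, 13 and 14. The cytosolic share at 150 mg/kg bw/d is 17.1%, against 9.47 to 10.5% in the other 3 groups. The shares depend on the division by transcript length.

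Exposure to 15 mg/kg bw/d gave a different set. Acot12 and Acot13 rose, and no member fell, against 7.57% of all tested genes that were higher at this dose. Acot13 ranged from 178.6 to 292.9 (median 218), with all 13 mice above the control median and 7 above the highest control mouse. Its log2FC was 0.43 ± 0.10 (limma, adjusted p = 0.00184). Acot12 ranged from 10.6 to 20.8 (median 15.6), with 12 of 13 mice above the control median. Its log2FC was 0.38 ± 0.09 (limma, adjusted p = 0.00243). Neither log2FC was beyond 0.5. Without the 7 libraries they were 0.44 and 0.36, with adjusted p-values of 0.000884 and 0.00188.

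The type I genes were spread at this dose. Acot1 had a log2FC of 0.42 (95% interval -0.00 to 0.85; limma, adjusted p = 0.189), Acot3 of 0.61 (-0.01 to 1.23; adjusted p = 0.193) and Acot4 of 0.32 (-0.03 to 0.68; adjusted p = 0.226). Acot2 had a log2FC of -0.24 (-0.77 to 0.29; adjusted p = 0.602). The lowest Acot2 values of all, 2.04 and 3.32, were in this group, and 3 of its 13 mice lay below the lowest control mouse. For Acot3 and Acot4 the mice at replicates 4 and 6 were highest, with 28.8 and 24.1 for Acot3 and 29.8 and 25.2 for Acot4, both above every control mouse. Acot8 had a log2FC of -0.13 (adjusted p = 0.378), with 1 of 13 mice above the control median.

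At 1.5 mg/kg bw/d limma called none of the 7 members, and 0.674% of all tested genes were higher. At an unadjusted p under 0.05 there were 2, Acot12 (log2FC 0.22, p = 0.0174, adjusted p = 0.269) and Acot13 (0.22, p = 0.0315, adjusted p = 0.338). For Acot13 the group fell into 4 libraries with 236 to 254, which were the 4 with low sums, and 9 libraries with 141 to 193. Without the low sums its log2FC was 0.06 (adjusted p = 0.847). Acot12 went the other way, with 9.84 to 14.3 in those 4 libraries and 12.4 to 16.1 in the other 9. The medians of Acot1 (8.38), Acot3 (8.05) and Acot4 (10.8) lay under those of the control, and their log2FC were -0.27, -0.04 and -0.09. Those of Acot2 (9.26 against 10.7) and Acot8 (21.3 against 22.3) also lay under the control, with log2FC of 0.12 and 0.01. Without the low sums the log2FC of Acot2 was -0.13 and that of Acot8 -0.017. A single mouse, replicate 1, held the highest Acot1 (30.5), Acot3 (17.2), Acot4 (19.1) and Acot8 (27.6) of this group.

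The doses were also compared with each other, in the same fit and with the same mice. From the lowest to the highest dose, 4 members were higher: Acot1 (log2FC 1.81, adjusted p = 8.01e-08), Acot2 (1.16, adjusted p = 0.00499), Acot3 (1.24, adjusted p = 0.0113) and Acot4 (0.73, adjusted p = 0.00820), against 2.55% of all tested genes. These 4 calls held without the 7 libraries. Between 15 and 150 mg/kg bw/d, Acot1 (1.12, adjusted p = 0.000111), Acot2 (1.53, adjusted p = 3.27e-05) and Acot8 (0.31, adjusted p = 0.0132) were higher at 150, against 9.85% of all genes. Acot13 fell from the middle to the highest dose (-0.43, adjusted p = 0.00110), against 10.1% of all genes, so that the step from 15 to 150 mg/kg bw/d took Acot2 and Acot13 in opposite directions. Between 1.5 and 15 mg/kg bw/d only Acot1 was called, higher at 15 (0.69, adjusted p = 0.0169), against 10.9% of all genes. That call was lost without the 7 libraries (0.58, adjusted p = 0.0776), where Acot4 (0.57, adjusted p = 0.0406) and Acot13 (0.39, adjusted p = 0.00523) were called higher instead.

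In the libraries with low sums several members lay apart, as given above for Acot3 in the control, and for Acot12 and Acot13 at 1.5 mg/kg bw/d. This did not hold in every group. At 1.5 mg/kg bw/d the low sums had Acot3 at 6.27 to 10.7, within the 2.02 to 17.2 of the others. In the control they had Acot13 at 170 and 183, within the 112 to 211 of the others. Acot2 lay between 22.2 and 26.9 in all 7 of them, whatever their group, while the other 33 libraries without the highest dose ranged from 2.04 to 22.9 with a median of 9.26. Acot1 lay at 4.48 to 10.6 in the same 7 libraries, against a median of 13.3 and a range of 4.17 to 30.5 in those 33. Macrophage, stellate, cholangiocyte and adipocyte marker sums were also higher in the 7 libraries. The endothelial markers summed to 56.7 to 84.8 there (median 68.1), against group medians of 75.5 to 85.6. The adipocyte markers summed to 13.2 to 49.6, against group medians of 2.98 to 9.27. Plin1, Lep and Retn were at 0 in all 7, so this sum came from Cidec and Adipoq. Over all libraries Adipoq, and the cholangiocyte markers Krt7 and Epcam, had means under 1. The part of these markers in the values was not tested. In the highest dose group, which held no such library, the summed hepatocyte markers ranged from 35878 to 48167, against 24495 to 50523 in the control, and no tested marker of the 9 cell type lists was called against the control. None of the 4 T and B cell markers passed the filter on low values. All 5 stellate and fibroblast markers had a log2FC below 0 (median -0.26, adjusted p from 0.381 to 0.885), and their part in the results was not tested. At 15 mg/kg bw/d 1 of 8 hepatocyte markers, Ttr, was called higher than in the control (log2FC 0.42), against 7.57% of all tested genes. Of 5 endothelial markers 1, Pecam1, was called lower (-0.52), against 6.61% of all tested genes. With 8 and 5 genes tested, 1 call in a direction is near these shares.

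Within groups, the members varied together in part. Each value was taken as its deviation from the group mean on the log2(value + 1) scale, and all 21 pairs of members were correlated over 54 mice, with permutation p-values from 100000 permutations within groups, adjusted over the 21 pairs. Of these pairs, 10 had an adjusted p under 0.05 for both Pearson's r and Spearman's rho, 9 of them with r above 0. The neighbours Acot3 and Acot4 were closest (r = 0.76, permutation p = 1e-05, adjusted 7e-05; rho = 0.74, permutation p = 1e-05, adjusted 7e-05), with r from 0.65 to 0.86 in the 4 groups and 0.75 without the 2 mice farthest from the median of Acot3. Both p-values are the smallest that the permutations can give. Acot3 and Acot4 also both overlap Gm49366, whose reads were not examined. Acot1 and Acot3 had r = 0.64 and rho = 0.63 (the same p-values), with r from 0.56 to 0.79 in the groups and 0.59 without the 2 farthest mice.

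Acot2 also varied with Acot13, the other mitochondrial member. Their r was 0.69 and rho 0.70 (permutation p = 1e-05, adjusted 7e-05), with r from 0.50 to 0.86 in the groups and 0.69 without the 2 farthest mice. Both genes also varied with the number of rows above 0 in a library (r = 0.64 for Acot2 and 0.51 for Acot13). Over the 47 libraries without low sums these r were 0.46 and 0.46. Acot1 (-0.42), Acot3 (-0.35), Acot4 (-0.14) and Acot12 (-0.50) had an r below 0 with that number over all libraries. Its part in the correlations between members was not tested. Of its neighbours in the gene cluster, Acot4 had r = 0.42 with Acot2 (permutation p = 0.0026, adjusted 0.009; rho = 0.40, permutation p = 0.0041, adjusted 0.014), and 0.79 within the group at 150 mg/kg bw/d, where Acot2 and Acot13 had 0.78. Acot1 and Acot2 had r = 0.08 (permutation p = 0.59, adjusted 0.66; rho = 0.05, permutation p = 0.74, adjusted 0.77). This value rested on the low sums, since it was 0.40 over the 47 other libraries, and Acot2 and Acot3 likewise went from 0.20 to 0.62. The pair of Acot2 and Acot12 had r = -0.38 (permutation p = 0.0051, adjusted 0.014; rho = -0.35, permutation p = 0.010, adjusted 0.024), and -0.14 over those 47. Over the 47 libraries Acot2 had much the same r with Acot13 (0.62), Acot3 (0.62) and Acot4 (0.59), and Acot3 and Acot4 had 0.78.

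**Figure D4:**
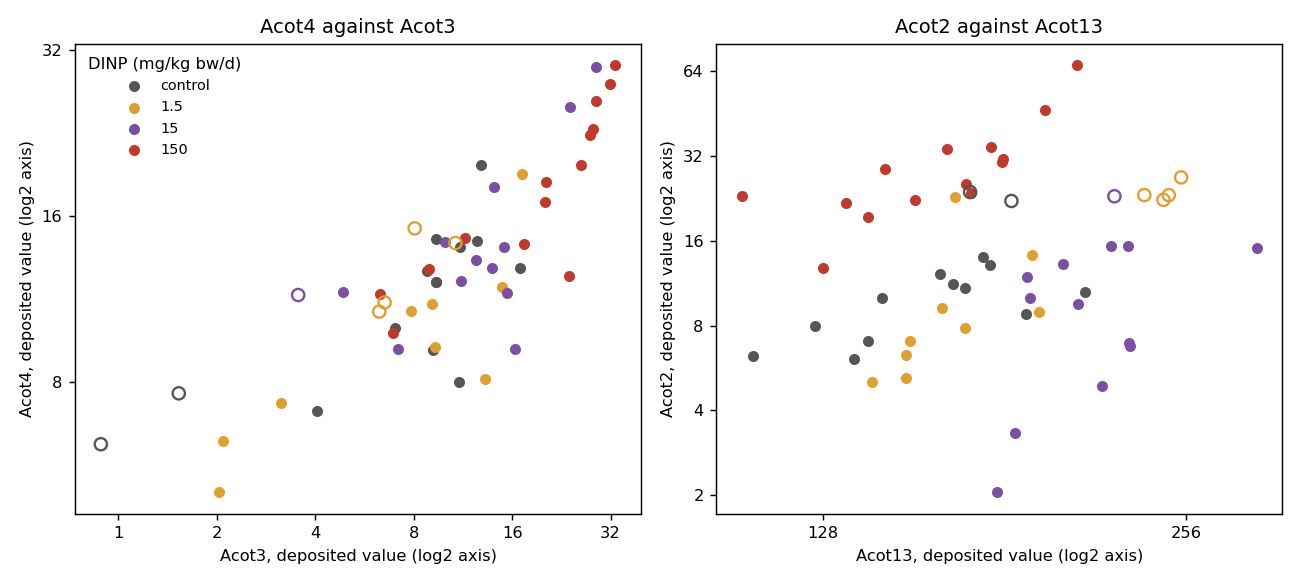
Acot4 against Acot3 (left) and Acot2 against Acot13 (right) in each mouse, as deposited values on log2 axes, coloured by DINP dose, with open circles for the 7 libraries with low sums. On the left all groups lie along 1 band (r = 0.76 of the deviations from group means). On the right most mice at 150 mg/kg bw/d have a higher Acot2 value than the filled points of the other groups at a like Acot13 value. The open circles have Acot2 values of 22.2 to 26.9. Those of the control have Acot13 values of 170 and 183. Those of the 2 lower doses have Acot13 values of 223 or more, beyond the highest mouse at 150 mg/kg bw/d (208.1).

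The genes whose variation within groups was most like that of each member, among 4900 non-members with a mean of at least 10, were found by the same deviations over 54 mice, as a description. For Acot1 they were Cpox (r = 0.71), Acsl1 (0.69) and Cyp4a14 (0.68). For Acot2 they were Cd36 (0.81), Plin2 (0.80) and Apoa4 (0.80), and for Acot13 Dynlt3 (0.80), Apoa4 (0.74) and Mknk2 (0.69), so that Apoa4 stood in both lists. Acot3 was nearest to Hpgd (0.69), Slc16a11 (0.68) and Pank1 (0.68), and Acot4 had Lpgat1 (0.70) and Ptp4a1 (0.61) among its nearest. Acot8 had Hadha (0.56) and Cfap36 (0.47) among its nearest, and Acot12 was nearest to Sugct (0.68), Cyp2e1 (0.64) and Hsd17b11 (0.64). Over the 47 libraries without low sums these values lay between 0.41 and 0.76. In single groups some were far lower. Cfap36 with Acot8 had r = 0.84 in the control and -0.06 at 150 mg/kg bw/d, and Pank1 with Acot3 had 0.92 in the control and 0.19 at 1.5 mg/kg bw/d.

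The other enzymes of the acyl-CoA and CoA pool were described by the lists they belong to. Of 12 other thioesterases, 8 were tested and none was called by limma at any dose against the control. At an unadjusted p under 0.05 there were 0, 2 and 2 of them from the lowest to the highest dose, and the median log2FC of the 8 at 150 mg/kg bw/d was -0.06. The highest of these genes were Baat, which joins bile acids to amino acids (mean 51.6 in the control and 56.2 at the highest dose, log2FC 0.13 ± 0.08, adjusted p = 0.502), and Acot7, a cytosolic type II thioesterase (23.6 and 27.5, log2FC 0.20 ± 0.09, adjusted p = 0.266). Between 15 and 150 mg/kg bw/d, Acot7 was higher (0.37, adjusted p = 0.00244) and Acot11 lower (-0.46, adjusted p = 0.0166) at 150, against 9.85% and 10.1% of all genes. Them6 fell from the lowest to the middle dose (-0.66, adjusted p = 0.00919), against 10.5% of all genes. With 8 genes tested, 1 call in a direction is near these shares.

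The acyl-CoA synthetases catalyse the opposite step. Of 24 listed, 15 were tested, with a median log2FC of 0.14 at 150 mg/kg bw/d. At this dose 2 rose and none fell, against 1.49% of all genes higher. These were Acsl1, the main long-chain synthetase of the liver (221 to 352 in the means, log2FC 0.72 ± 0.13, adjusted p = 0.000337), and Slc27a2, a very long-chain synthetase and fatty acid transporter (85.4 to 125, log2FC 0.56 ± 0.10, adjusted p = 0.000201). At 15 mg/kg bw/d 4 rose and 3 fell, against 7.57% of all genes higher and 6.61% lower. The calls at this dose in this list and in the following ones are named here after their values were seen. Acsm3 (0.58), Slc27a5 (0.41), Acsm5 (0.33) and Slc27a2 (0.31) rose, and Acsf2 (-0.68), Acsm1 (-0.46) and Slc27a4 (-0.25) fell. Of 13 genes of CoA synthesis and breakdown, none was called at 150 mg/kg bw/d (3 had an unadjusted p under 0.05). At 15 mg/kg bw/d 3 of the CoA genes rose and none fell, against 7.57% of all genes higher. They were Nudt7 (log2FC 0.82, adjusted p = 0.00248) and Nudt19 (0.46, adjusted p = 0.00141), both peroxisomal hydrolases of CoA, and Vnn3 (0.41, adjusted p = 0.0221). Of 11 genes of acyl-CoA binding and transfer, 1 rose at 150 mg/kg bw/d and none fell, against the same 1.49% of all genes higher. This was Abcd3, a peroxisomal membrane transporter of acyl-CoA, with a mean of 268 in the control and 359.8 at the highest dose (log2FC 0.42 ± 0.09, adjusted p = 0.00335). At 15 mg/kg bw/d Fabp1, the fatty acid binding protein of the liver (mean 1899 in the control and 3929, log2FC 0.87, adjusted p = 0.00191), and Dbi, which binds acyl-CoA (0.42, adjusted p = 0.0157), rose, and Acbd3 fell (-0.39, adjusted p = 0.00120), against the same 7.57% and 6.61% of all genes. All adjusted p-values of these lists are from the same limma fit over all genes.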

How the data were processed

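RNA of 54 livers was sequenced with QuantSeq FWD 3′ libraries, and the reads were run through nf-core/rnaseq by the authors (per the labels STAR, RSEM and Salmon, GRCm38). The deposited values are a signal: in each library they are whole multiples of 1 step (0.765 to 1.11), and these whole numbers sum to 948342 to 980641, as rounded TPM divided by a size factor would. Depth cannot be read from them, so no counting error is given and no count test was run.

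Values were compared as log2(value + 1) with limma 3.58.1 (R 4.3.3, eBayes with a trend), with all 4 groups in 1 fit, over 11431 rows with a mean of at least 1, with Benjamini-Hochberg adjustment over these rows. A gene was called at an adjusted p under 0.05. Permutation tests used SciPy 1.17.1 and NumPy 2.4.6, and the fit was tested on simulated data. Groups came from the labels. All members were named, and genes of the other lists if called at 150 mg/kg bw/d (for other thioesterases at any dose or between doses, or with the 2 highest means). Genes of these lists called at 15 mg/kg bw/d were named after their values were seen. The members and lists were chosen with earlier results of these data known. Alternatives varied the pseudocount, filter, scaling, weights, groups fitted, replicate block, threshold and libraries. The limit of 900000 on summed values was chosen after seeing the data. Some genes like the members in their variation are not reported here.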

Additional observations from a re-analysis of the deposited data

How the results depend on the processing

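Besides leaving out single libraries, 604 values were computed under other settings, of which 572 kept their direction and their side of the threshold (for counts, stayed within 1.5 times). At 150 mg/kg bw/d against control 5 members were called, and 3 with no filter on low values, 3 with each library rescaled to the same sum, 2 without the 7 libraries with low sums (a setting added after seeing the data), and 3 to 5 with 1 library left out (3 without control replicate 8 or replicate 7 of the highest dose). Acot4 and Acot12 were the calls lost with no filter (adjusted p = 0.0537 and 0.0516) and with rescaling (0.0656 and 0.0777). Rescaling gave Acot13 a log2FC of -0.10. At 15 mg/kg bw/d 2 members were called, and 0 where a log2FC beyond 0.5 was also required, which also took the 4 calls between 15 and 150 mg/kg bw/d to 2. Between 1.5 and 15 mg/kg bw/d 1 member was called, 0 with array quality weights, 2 without the 7 libraries, and 1 to 2 with 1 library left out (2 without replicate 1 of 1.5 mg/kg bw/d).

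Values that changed sign were never called. At 1.5 mg/kg bw/d Acot8 (0.01) was -0.0029 with quantile normalization, -0.029 with array quality weights, -0.017 without the 7 libraries, and -0.038 to 0.041 with 1 library left out. Acot2 (0.12) was -0.13 without the 7 libraries and -0.087 where the cluster was summed, and Acot3 (-0.04) was -0.21 to 0.080 with 1 library left out. Acot2 at 15 mg/kg bw/d (-0.24) was 0.28 where the cluster was summed, which is the sum's own value. Acot13 at 150 mg/kg bw/d was 0.022 without the 7 libraries and -0.041 to 0.037 with 1 library left out. The cause was not tested.

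With the replicate number as a replicate block, 4 members were called at 150 mg/kg bw/d, since Acot12 had an adjusted p of 0.0544, and the counts of the other comparisons were 0, 2, 4, 4 and 1, as without it. The numbers did not pair the mice: the 79 pairs of libraries with the same number had a mean correlation of deviations of -0.0025. The deposited values do not keep the depth, which limits what can be said of single low values.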
